A study of Mus musculus with 12 samples.

Results

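Tumour-bearing colorectal tissue taken 10 weeks after the start of a chemical carcinogenesis protocol was compared with untreated colorectal tissue at 0 weeks. The comparison used 6 of the 12 arrays of the series, 3 titled AOM/DSS treatment_10w and 3 titled without treatment_0w. It covered 59452 of 145548 non-control probes, those well above background on at least 3 of these 6 arrays. All mice were male C57BL/6. The 10-week mice had received an intraperitoneal injection of azoxymethane (AOM) at 10 mg/kg and, starting 7 days later, 3 cycles of 2% dextran sulfate sodium (DSS) in drinking water. Each cycle lasted 7 days and was followed by 14 days of plain water. The 0-week mice were untreated, and their tissue is labelled normal. The tissue at 10 weeks is labelled colorectal tumor. The labels used here give no age and do not say whether tumour was separated from its surroundings or whether each array held a separate animal. The p-values therefore measure the spread between arrays, part of which may be technical. The arrays at 1 week (AOM alone) and 2 weeks (AOM and DSS), 3 of each, entered the fit for the estimate of spread and are given as levels where they help to place a change.

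AOM is a carcinogen that, after activation in the liver and colon, alkylates DNA. DSS is a sulfated polysaccharide that damages the colonic epithelium and brings on colitis, and repeated rounds of injury and repair after AOM lead to epithelial tumours of the distal colon, many with active Wnt signalling. Such tissue holds epithelial cells beside immune cells, fibroblasts, vessels and, when the whole wall is taken, muscle and enteric neurons. In tissue of mixed cells, fewer cells of a type and less RNA per cell cannot be told apart.

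At 0 weeks 36.4% to 37.7% of all probes exceeded background on each array, and at 10 weeks 40.8% to 44.4% did. The 10-week arrays were brighter, with a median processed signal of 10.0 to 11.1, against 5.92 to 6.56 on the untreated ones. Across the tested probes, arrays of the same group correlated at 0.972 to 0.979 and arrays of different groups at 0.904 to 0.938. The 10-week arrays shared 1 slide and were scanned on a day of their own, so slide, scan day and group cannot be told apart. Values are given on the log2 scale of the authors' deposited table, where 1 unit is a doubling. A probe was called higher or lower where limma's Benjamini-Hochberg adjusted p was below 0.05 in the same direction on this scale and on the log2 processed signal of the scanner files. On both scales 14373 probes were called, 24.2% of those tested. Of these, 8345 were higher at 10 weeks (14.0%) and 6028 were lower (10.1%).

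The largest rises fell on catalogue probes that resemble each other in sequence. From the first family 4 probes are shown, because they place larger and smaller rises side by side. The smallest rise of the family is not among them. Capitals mark runs of 16 or more bases that a probe shares with another of the 4.
A_55_P1961408: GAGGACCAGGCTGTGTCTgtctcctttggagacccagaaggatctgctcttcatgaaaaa
A_55_P1995018: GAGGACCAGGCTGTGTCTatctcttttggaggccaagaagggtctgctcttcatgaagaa
A_55_P1954799: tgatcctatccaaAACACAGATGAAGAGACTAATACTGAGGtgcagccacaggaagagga
A_55_P2054373: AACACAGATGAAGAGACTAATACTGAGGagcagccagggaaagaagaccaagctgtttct

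Probes were joined in a family when they shared 18 bases directly or through a chain of others, a grouping made after the values were seen. The first family had 6 probes, the second 10 and the last 2. The stretch TGAGGCCACTGATGCTGG occurs in 4 of the 10 probes of the second family, and GCTGCAATAGAGGAGAAC is shared by the pair. The files give no gene for any of these 18 probes, and none matched the gene-start sequences at hand. Probes of a family can bind the same transcripts, so they are not independent measurements of separate genes.

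Probe A_55_P1961408 read 1.78, 3.81 and 1.47 on the 0-week arrays and 12.36, 14.27 and 14.05 on the 10-week arrays. Every 10-week array lay above every 0-week array, and replicate 1 was the lowest of the 10-week arrays. The probe was not well above background on any 0-week array, so its level there is a bound and its rise on the deposited scale was at least 901-fold (fitted change 11.20, SE 0.70, limma adjusted p = 4.85e-06). For such bounds, the 10-week mean is set against the dimmest signal that counted as well above background on each 0-week array, or the probe's own value where that was higher. All bounds hold for the deposited scale alone: after normexp background correction, whose offset by construction shrinks the changes of dim probes, the fitted change of this probe was 7.42. Its mean was 2.53 at 1 week and 1.90 at 2 weeks, again with no array well above background.

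The second member of that family, A_55_P1995018, read 2.58, 3.62 and 2.68 at 0 weeks and 11.72, 13.79 and 13.44 at 10 weeks, a rise of at least 616-fold (limma adjusted p = 2.15e-06). A_55_P1954799 read 1.59, 1.59 and 1.72 at 0 weeks and 6.79, 9.01 and 8.92 at 10 weeks, at least 22.9-fold higher (limma adjusted p = 1.25e-05). A_55_P2054373 read 2.37, 3.62 and 3.32 against 7.25, 9.65 and 9.53, at least 34.1-fold higher (limma adjusted p = 0.000274). The latter pair carries the other shared stretch, of 28 bases, and in both probes every 10-week array lay above every 0-week array. A_55_P1969960 rose by at least 2.52-fold, and A_55_P2018863 was not well above background on any of the 6 arrays and was not tested.

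The second family had all 10 probes tested, and all rose, with fitted changes of 7.43 to 10.74. A_55_P2064913 had a mean of 2.30 ± 0.92 without treatment (SD, n = 3) and read 11.83, 13.80 and 13.49 at 10 weeks, a rise of at least 640-fold (limma adjusted p = 1.03e-06). A_55_P2068510, well above background on all 6 arrays, read 4.46, 4.61 and 4.24 against 11.83, 13.64 and 13.29. Its level was measured in both groups, and the rise was 358-fold (change 8.48, SE 0.42, limma adjusted p = 1.03e-06). A_55_P2104071, measured on 2 of the 3 arrays at 0 weeks, rose by 555-fold (change 9.12, SE 0.41, limma adjusted p = 8.69e-07).

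In the family of 2, A_55_P1961407 read 3.04, 2.59 and 3.11 at 0 weeks and 11.67, 13.70 and 13.42 at 10 weeks, at least 593-fold higher (limma adjusted p = 9.34e-07). Its partner A_55_P1971928 read 1.62, 1.61 and 1.49 against 8.60, 10.98 and 11.16, at least 92.4-fold higher (limma adjusted p = 5.71e-06). Over the 3 families, each of the 17 tested probes was called higher (14.0% of all tested probes were), with no overlap of the groups. The families were built out from probes with the largest rises, so this count is no support for a rise. How many of all tested probes had groups apart was not counted. In 17 of 17, 10-week replicate 1 was the lowest of its group. None of these calls was lost under any of the 7 scalings or without any 1 of the 6 arrays. Of the 17 probes, 11 were not well above background on any 0-week array and passed the filter through the 10-week arrays alone. Those 11 had to differ, so their calls and p-values are no support for a rise. The sizes did depend on the background correction, and after normexp A_55_P1995018 changed by 6.98, A_55_P2064913 by 6.77 and A_55_P1954799 by 2.41. At their smallest over the 7 scalings, the changes of A_55_P2068510 and A_55_P2104071 were 6.65 and 6.93. At 2 weeks 13 of the 17 were not well above background on any array. Of the 17 probes with a fitted rise of 8 or more on the log2 scale, 13 were in families of this kind, as were 29 of the 181 with a rise of 4 or more. Of the 20 probes with a fall of 4 or more, 1 was. The share of all tested probes that belong to such families was not counted, so these counts have no background beside them.

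**Figure D1:**
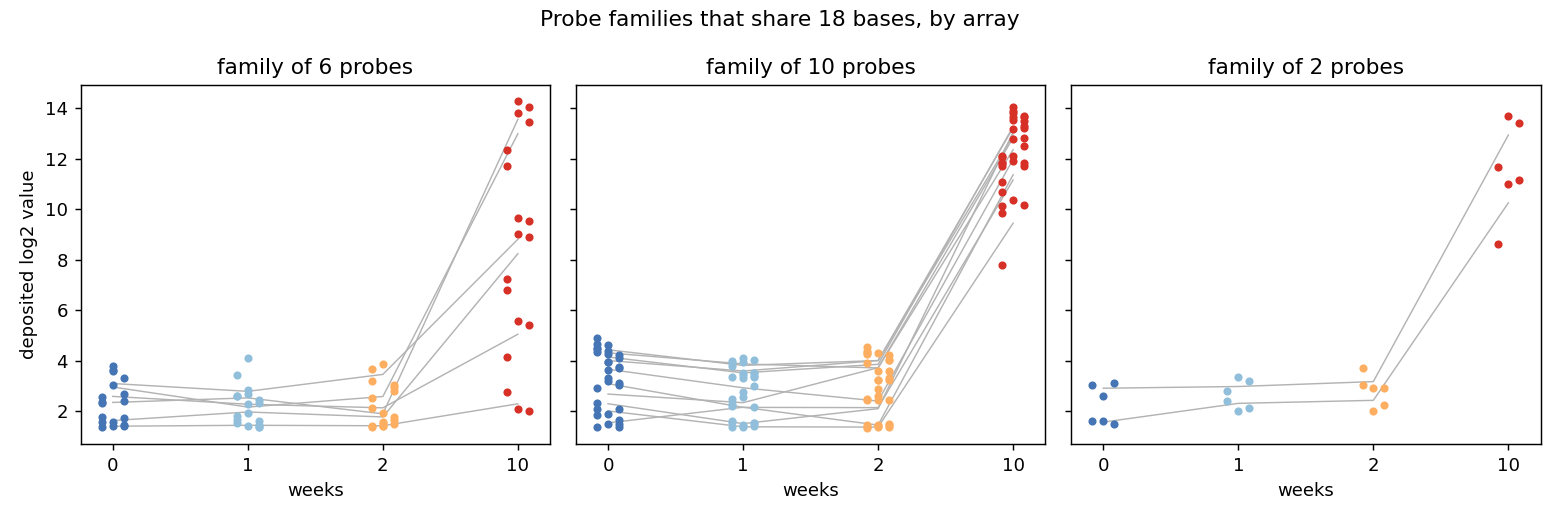
Deposited log2 value (vertical axis) of each probe on each of the 12 arrays, by weeks (horizontal axis), for the families of 6, 10 and 2 probes; each point is 1 probe on 1 array and grey lines join a probe's group means. The 17 tested probes were low through 2 weeks, and at 10 weeks all of them were above their 0-week values, with 10-week replicate 1 (the leftmost point of its group) the lowest.

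Other large rises were followed by the rule for named probes, which asked for calls on both scales, groups that did not overlap on either, and detection on 2 or more arrays of each group. The rule was met by 6038 probes that were higher and 5331 that were lower. The 12 largest rises by the rule included 3 of the second family and 9 catalogue probes of no family. A_51_P426096 read 3.63, 3.89 and 3.96 at 0 weeks and 11.89, 12.58 and 11.96 at 10 weeks, a 317-fold rise on the deposited scale (change 8.31, SE 0.26, limma adjusted p = 1.72e-07). The probe was well above background on 2 of the 3 arrays at 0 weeks, and its change ran from 5.97 to 8.57 over the 7 scalings. Its 10-week arrays lay close together, and its mean had reached 5.07 at 1 week and 7.24 at 2 weeks.

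The 9 probes differed in when their level moved. A_52_P221756 read 8.29, 7.95 and 8.21 at 0 weeks and 14.14, 14.87 and 13.97 at 10 weeks (72.4-fold, SE of the log2 change 0.23, limma adjusted p = 2.70e-07), with means of 7.78 and 8.03 at 1 and 2 weeks. A_52_P385801 read 7.40, 7.35 and 7.30 against 12.91, 13.96 and 13.01 (61.5-fold, limma adjusted p = 9.34e-07), with means of 6.73 and 6.78 in between. For both, the means at 1 and 2 weeks stayed within 0.7 of the 0-week mean. A_52_P95161 went from a mean of 5.04 at 0 weeks to 9.99 at 1 week, 10.99 at 2 weeks and 12.50 at 10 weeks (176-fold at 10 weeks, limma adjusted p = 1.13e-06). A_66_P106131 averaged 4.59 at 0 weeks, 13.11 at 2 weeks and 11.36 at 10 weeks (108-fold at 10 weeks, limma adjusted p = 8.28e-07). These differences in course between probes were not tested. The other 4 (A_51_P354126, A_51_P510156, A_51_P471177 and A_51_P256632) rose by 50.8-fold to 172-fold. These folds are on the deposited scale. At their smallest over the 7 scalings, the changes of A_66_P106131, A_51_P354126 and A_52_P95161 were 5.01, 5.47 and 6.04.

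The largest falls were smaller than the largest rises. Probe A_55_P2092633 read 16.20, 16.53 and 16.41 at 0 weeks and 8.25, 9.14 and 8.95 at 10 weeks, a 195-fold fall (change -7.61, SE 0.74, limma adjusted p = 7.57e-05). A_55_P2057189 read 13.27, 13.87 and 14.04 against 6.12, 6.91 and 6.84, a 137-fold fall, and A_66_P109060 read 13.46, 14.08 and 13.92 against 5.64, 7.98 and 7.32, a 115-fold fall (limma adjusted p = 3.76e-05 and 0.000414). The level of all 3 at 1 week lay near that at 0 weeks, with means of 16.39, 14.19 and 13.96, and was already low at 2 weeks, with means of 8.61, 6.75 and 5.96. A_55_P2110615 fell more evenly over the weeks, from 13.40, 12.83 and 12.43 at 0 weeks, through means of 10.51 and 8.84, to 7.32, 7.01 and 7.54 at 10 weeks (48.3-fold, limma adjusted p = 0.00012).

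For 4 other large falls, 10-week replicate 2 was the lowest array and the change was smaller without it. A_55_P2487509 read 13.83, 13.83 and 13.90 at 0 weeks and 10.19, 5.80 and 10.97 at 10 weeks, a change of -4.87 (SE 1.00, limma adjusted p = 0.00455) that was -3.28 without that replicate. A_51_P447785 read 12.70, 12.57 and 12.89 against 9.55, 4.81 and 9.83, and its change of -4.66 was -3.03 without it. CUST_OEV3_070471 and A_51_P114722 changed by -4.19 and -4.01, and by -3.16 and -2.97 without the same array. The calls of these 4 probes held without any 1 array. Those of A_51_P428360 (change -4.35), CUST_OEV3_001667 (-4.32) and A_66_P139646 (-4.26) did not: they passed the threshold in 2, 2 and 3 of the 6 fits that left out an array. A_51_P428360 changed by -2.80 without 10-week replicate 2, and CUST_OEV3_001667 by -3.48 without 10-week replicate 1, both short of the threshold. The latter probe read 2.97, 6.48 and 4.52 at 10 weeks, so replicate 2 fell least there, and without it the change was -5.23. In A_51_P428360 and A_66_P139646, 10-week replicate 2 was the lowest array too, and A_66_P139646 changed by -3.30 without it, short of the threshold. In CUST_OEV3_023226 it was the lowest by less, at 6.71, 6.48 and 8.21. The change of that probe was -4.06, and -3.73 without 10-week replicate 2.

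Detection itself differed between the groups. On all 3 arrays at 10 weeks and on none at 0 weeks, 2916 probes were well above background, and 473 the other way round. Leaving out an array relaxes the condition, so both counts could only stay or grow, and their growth shows no reliance on that array. The 2916 became 4392 without 10-week replicate 2, and the 473 became 732 without 10-week replicate 1 and 746 without 10-week replicate 3. With the scanner's flag for a positive and significant signal in place of the one for well above background, the counts were 2839 and 830. For most of the first kind the level was low, with a median bound of 1.41-fold, and 95 were at least 8-fold higher. The 6 with the largest bounds were all members of the families above, between at least 200-fold and at least 901-fold. Among the 473 lost at 10 weeks the median bound was 2.64-fold, and 8 were at least 8-fold lower. A_55_P2350617 led these with 9.44, 8.65 and 8.35 at 0 weeks and 2.87, 3.13 and 3.23 at 10 weeks, at least 49.3-fold lower (limma adjusted p = 7.59e-05). A_51_P257951 read 8.29, 8.78 and 8.54 against 3.30, 1.89 and 3.03, at least 37.9-fold lower (limma adjusted p = 7.97e-06). After normexp the fitted changes of this pair were -2.96 and -2.60, smaller than these bounds, which hold for the deposited scale. The brighter 10-week arrays, given above by their median signal, moved with these counts; their part in the counts was not tested.

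The files pair no probe with a gene. Genes were therefore found by matching all probe sequences to RefSeq sequence around gene starts (250 bases before to 50 after, build GRCm38.p6) and to miRNA hairpins. A match at 1 place was found for 793 probes, 538 of them on the strand of an annotated gene. Of these, 225 probes of 218 genes were tested, 159 genes with the probe inside the annotated gene and 59 with it upstream of the annotated start. On both scales 24 genes were higher and 20 lower, 20.2% of the 218, against 24.2% of all tested probes. Among the 117 protein-coding genes with a probe inside them, 15 were higher and 14 lower, and among 41 long non-coding RNA genes 2 were higher and 4 lower. Their median changes were 0.02 and -0.10, beside 0.01 over all tested probes. These genes are a sample set by where probes happen to lie, and exon, intron and UTR were not assigned.

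Il1b, which encodes the inflammatory cytokine interleukin 1 beta, had the largest fitted rise among the located genes. Its probe lies within the gene, on the minus strand at chr2:129369729-129369788, and is shown because Il1b is the one listed cytokine with a located probe.
A_55_P2720183: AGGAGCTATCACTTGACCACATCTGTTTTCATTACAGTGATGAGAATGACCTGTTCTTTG
The capitals mark bases identical to the RefSeq sequence, here the whole probe. It read 1.56, 1.42 and 1.49 at 0 weeks, with no array well above background, and 6.29, 6.78 and 5.59 at 10 weeks. All 10-week arrays lay above all 0-week arrays. The probe passed the filter through the 10-week arrays alone, so it had to differ, and this separation and the p-value are no support for a rise. The rise was at least 5.66-fold (fitted change 4.73, SE 0.39, limma adjusted p = 2.99e-05). Mean levels were 1.46 at 1 week and 5.31 at 2 weeks. The call held under all 7 scalings, with changes of 1.11 to 5.10, and without any 1 array.

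By the rule for named genes, the next largest rises were in Uchl1, Plet1 and Hbb-bs. The probe of Uchl1, a deubiquitinating enzyme abundant in neurons, read 2.72, 4.21 and 5.24 at 0 weeks and 6.53, 6.48 and 6.20 at 10 weeks (chr5:66676566-66676625). Its 0-week arrays were widely spread, and the 10-week arrays lay together above them. The change was 2.35 (SE 0.49, limma adjusted p = 0.00506) and 1.68 without 0-week replicate 1. The probe of Prph, which encodes the neuronal filament protein peripherin, changed by -0.43 and did not pass (limma adjusted p = 0.0647).

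The probe of Plet1, a membrane protein of epithelial progenitor cells, lies at chr9:50505002-50505055 and read 8.34, 8.71 and 8.46 at 0 weeks and 11.35, 10.08 and 10.87 at 10 weeks. The groups were more than 1 unit apart, and the change was 2.27, or 4.81-fold (SE 0.46, limma adjusted p = 0.00434). Its mean was 9.57 at 1 week and 10.61 at 2 weeks. The probe of Hbb-bs, a beta-globin of red blood cells, read 4.91, 4.58 and 5.29 against 6.32, 6.81 and 7.14, a change of 1.83 (SE 0.36, limma adjusted p = 0.00386). It matched over 46 bases at chr7:103827879-103827924, and near-identical globin genes may bind it too, so the gene is uncertain.

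The probe of Sugct, a mitochondrial enzyme that moves coenzyme A to glutarate, read 11.56, 11.66 and 11.71 at 0 weeks and 13.10, 12.86 and 13.13 at 10 weeks (chr13:17685792-17685851). The arrays of each group were tight, and the change was 1.39, or 2.61-fold (SE 0.26, limma adjusted p = 0.0026), with a mean of 13.73 at 2 weeks. The call did not hold with scaling by the percentile over all probes, where the change was 0.81. The same probe also lies before the start of Gm40826 on that strand, so either transcript may be read. The probe of Trp53rkb, a protein kinase gene with a near-identical copy, read 6.36, 6.31 and 6.15 against 7.90, 7.01 and 8.24, a change of 1.44 (SE 0.36, limma adjusted p = 0.0116). This probe is 1 of 14 that carry a GA repeat, 12 of which had a positive change, so the gene is uncertain.

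Smaller rises that met the rule were in Gm40371 (1.46), D730005E14Rik (1.17), Rdh9 (1.06), LOC115486424 (1.05), Morn3 (0.99), Defb22 (0.95) and Otx2 (0.94). Rdh9 encodes a retinol dehydrogenase, Defb22 a beta-defensin, an antimicrobial peptide family, and Otx2 a homeobox transcription factor. The Rdh9 probe lies upstream of the annotated start, outside the annotated gene. That of LOC115486424 also lies before the start of the gene T on that strand, so either transcript may be read. The Otx2 probe (chr14:48665277-48665336) read 5.72, 5.56 and 5.47 at 0 weeks and 6.56, 6.51 and 6.48 at 10 weeks (SE 0.20, limma adjusted p = 0.00512). The calls of Morn3 (limma adjusted p = 0.0484) and Defb22 (limma adjusted p = 0.036) were the weakest, each passing in 1 of the 6 fits that left out an array. The call of Gm40371 (limma adjusted p = 0.017) was lost without 0-week replicate 1 and without 10-week replicate 3. All of these rises kept their sign under the 7 scalings.

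The fall of C1qtnf3, which encodes a secreted protein related to complement C1q and adiponectin, was the largest among the genes named by the rule. Its probe, at chr15:10978653-10978712, read 7.10, 7.09 and 7.23 at 0 weeks and 5.21, 5.07 and 4.46 at 10 weeks. The 0-week arrays lay within 0.2 of each other, and the groups were almost 2 units apart. The change was -2.22, a 4.67-fold fall (SE 0.26, limma adjusted p = 0.00021). The mean was 7.07 at 1 week and 5.87 at 2 weeks.

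Trak1, Acad11, Trpc1, Plce1 and Camta2 followed. The probe of Trak1, an adaptor that links mitochondria to motor proteins (chr9:121455058-121455117), read 8.43, 8.23 and 8.22 at 0 weeks and 6.81, 6.57 and 7.25 at 10 weeks (change -1.41, SE 0.21, limma adjusted p = 0.000859). That of Acad11, an acyl-CoA dehydrogenase of fatty acid oxidation (chr9:104126794-104126853), read 10.78, 10.61 and 10.61 against 8.94, 8.93 and 9.91 (change -1.41, SE 0.27, limma adjusted p = 0.00305). In both, the groups were apart, as the rule required, and 10-week replicate 3 was the least reduced. Mean levels at 2 weeks, 7.38 for Trak1 and 10.04 for Acad11, lay between those of 0 and 10 weeks.

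The probe of Trpc1, a calcium-permeable cation channel (chr9:95706736-95706795), read 5.52, 5.45 and 5.41 at 0 weeks and 4.04, 3.88 and 4.41 at 10 weeks (change -1.35, SE 0.19, limma adjusted p = 0.000568). Its mean at 1 and 2 weeks, 5.37 and 5.26, stayed near the 0-week level. The probe of Plce1, a phospholipase C driven by Ras proteins (chr19:38523966-38524025), read 7.68, 7.66 and 7.49 against 6.61, 6.20 and 6.40 (change -1.21, SE 0.18, limma adjusted p = 0.000865). That of Camta2, a transcription activator that binds calmodulin, read 7.92, 7.73 and 7.59 against 6.51, 6.43 and 6.83 (change -1.16, SE 0.16, limma adjusted p = 0.00061). The Camta2 probe, at chr11:70669466-70669525, also lies before the start of Spag7 on that strand.

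The remaining falls named by the rule were LOC115486438 (-1.14), Neurl3 (-1.08), Leng9 (-1.05), Atraid (a 2.01-fold fall), Pdzd7 (-0.96) and Atxn2 (-0.89). Neurl3 is a ubiquitin ligase gene and Atxn2 encodes an RNA-binding protein. The probes of Leng9 and Atxn2 lie upstream of the annotated starts, outside the annotated genes. The Atraid probe (chr5:31054559-31054618) also lies before the start of Cad, and had a mean of 10.97 ± 0.036 without treatment (SD, n = 3) and 9.97 ± 0.26 in tumour tissue (SE 0.16, limma adjusted p = 0.00109). With unscaled signals the calls of LOC115486438, Neurl3 and Pdzd7 were lost, while every one of the 12 falls kept its sign under all scalings. Each of the 12 passed without any 1 array. Genes for a subunit of the respiratory chain and a mitochondrial ribosomal protein, Ndufa11 (-0.52, limma adjusted p = 0.0267) and Mrpl43 (-0.44, limma adjusted p = 0.0289), were also lower; they were singled out after their values were seen.

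**Figure D2:**
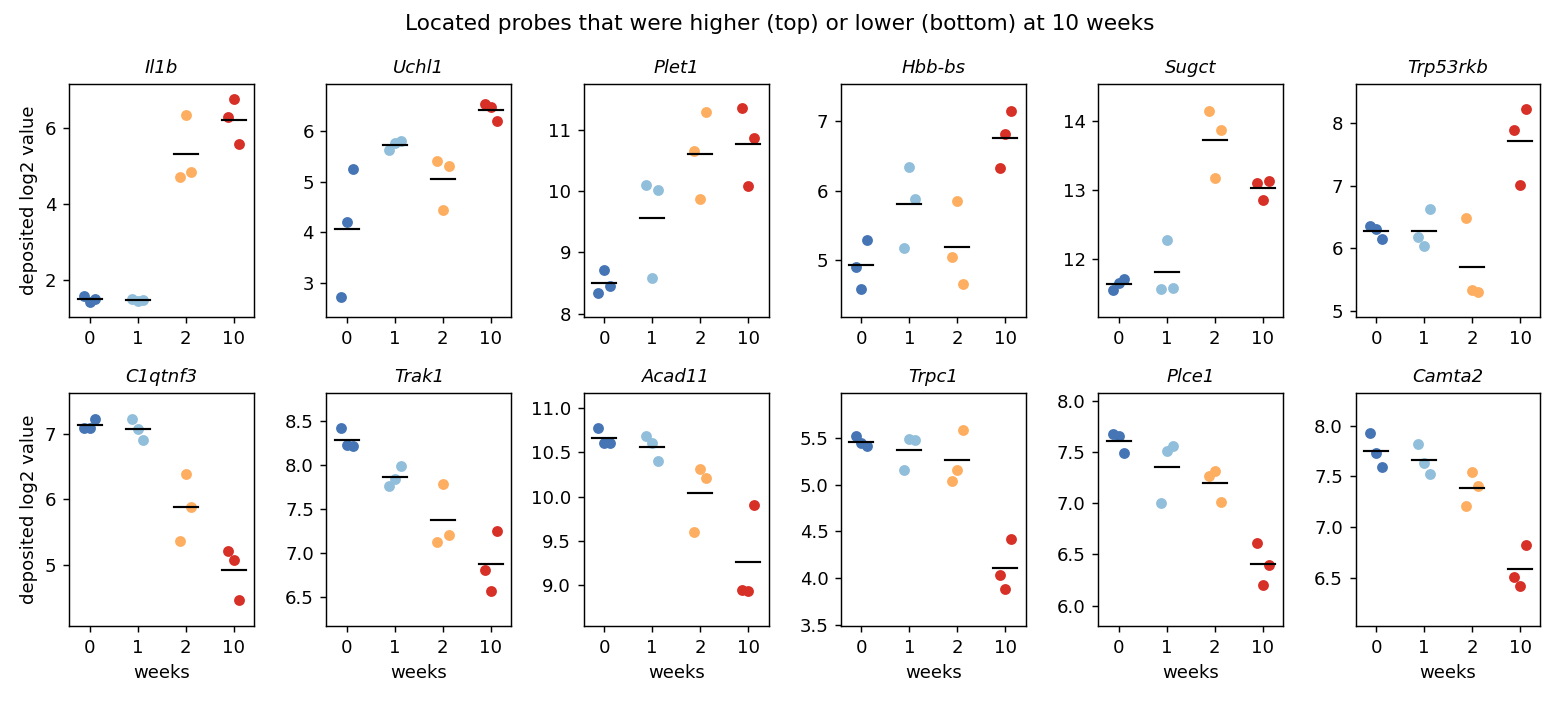
Deposited log2 value (vertical axis, scaled to each gene) on each array at 0, 1, 2 and 10 weeks (horizontal axis) for the probes of 6 genes that were higher at 10 weeks (top) and 6 that were lower (bottom); points are arrays and bars are group means. In all 12 panels the 10-week points lie apart from the 0-week points, which is no separate result. The rule that chose the genes asked for groups apart, save for Il1b, which was seen on all arrays at 10 weeks and on none at 0 weeks. At 2 weeks Il1b, Plet1 and Sugct had means of 5.31, 10.61 and 13.73, against 6.22, 10.77 and 13.03 at 10 weeks. Trpc1 stayed near its 0-week level until 2 weeks.

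Besides Il1b, 7 of the located genes were seen on all arrays at 10 weeks and on none at 0 weeks, and none the other way round. Gm10754 was at least 2.00-fold higher (limma adjusted p = 0.02), a call lost without 0-week replicate 2, 10-week replicate 1 or 10-week replicate 2. For 2300003K06Rik the bound was 1.54-fold (limma adjusted p = 0.0395), and the call stood in 1 of the 6 fits without an array. Gm34455, Crygs and Gm13373 did not pass on the deposited scale (limma adjusted p = 0.201, 0.126 and 0.31). The probes of Gm10754 and Gm34455 lie upstream of the annotated starts, outside the annotated genes.

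Gene lists for the Wnt pathway, colonocytes, fatty acid oxidation, proliferation, epithelial defence, cytokines, extracellular matrix, colon position and 16 kinds of cell could hardly be read, since few of their genes start where a probe lies. Of 404 genes in all lists, 5 had a located probe on their strand and 4 were tested. Il1b and Uchl1 were higher, and Prph and Cldn7 did not pass. Cldn7 encodes an epithelial tight junction protein, and its probe was well above background on all 6 arrays, at 5.98, 5.76 and 6.13 against 5.98, 6.22 and 6.15 (change 0.16, limma adjusted p = 0.623). The probe of Spp1, the matrix protein osteopontin, was not well above background on any of the 6 arrays. The labelled tissue could thus be checked against 1 epithelial marker and no marker of muscle, immune or stromal cells, and the part of cell composition in any change was not tested.

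Of 65 tested probes on the strand opposite to a gene, 5 were higher and 8 lower, 20.0% in all, below the 24.2% of all tested probes. The probe opposite to and upstream of Cdr1 averaged 10.37 at 0 weeks and 8.12 at 10 weeks, a change of -2.25 (limma adjusted p = 0.00058). The probe opposite to Hspa1a, a heat shock protein gene, changed by -1.81 (limma adjusted p = 0.00203). The probe opposite to Dusp13, a phosphatase gene, changed by 2.38 (limma adjusted p = 0.000412). These 3 were chosen after their values were seen. The probe on the hairpin of Mir196b, a miRNA encoded among the Hox genes, changed by -0.64 on the deposited scale (limma adjusted p = 0.0116) and by -0.31 on the processed scale, where it did not pass (limma adjusted p = 0.124).

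Probes that carry a GT repeat and those that carry the complementary CA repeat had median changes of opposite sign. This set was chosen after values were seen. The motifs searched, on the probe strand as given, were GTGTGTGTGTGTGTGT and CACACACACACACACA, the repeat found on the strand opposite to a longer run of the first. The first was found in 94 probes (0.0646% of all non-control probes) and the second in 51 (0.0350%), and all were well above background on all 6 arrays. Probes of a repeat share most of their sequence and are not independent.

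On the deposited scale all 94 probes with the GT repeat had a positive change, with a median of 0.71 and a range of 0.29 to 1.62. On both scales 36 were called higher (14.0% of all tested probes were) and none lower. In 82 of the 94 every 10-week array lay above every 0-week array. Of the 51 probes with the CA repeat, 49 had a negative change, with a median of -0.84 over all 51, and 44 were called lower (10.1% of all tested probes were) and none higher. In 48 of them every 10-week array lay below every 0-week array. How many of all tested probes had groups apart in either direction was not counted, so the 82 and the 48 have no background beside them.

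The untreated arrays had GT medians of 11.05 to 11.23, and the tumour arrays had GT medians of 11.48 to 12.05. CA medians ran from 13.21 to 13.38 without treatment and from 12.17 to 12.52 in tumour tissue. The medians of the groups did not overlap for either repeat. At 1 and 2 weeks the GT medians were 10.42 to 11.09 and the CA medians 13.21 to 13.97. The median change ran from 0.20 to 0.77 for GT and from -1.37 to -0.76 for CA over the 7 scalings, so the sign of neither median depended on the scaling. The counts did: GT probes past the threshold as higher numbered 9 with the percentile over all probes and 87 unscaled, against 62 on the deposited scale alone, and CA probes past it as lower numbered 37 to 49. Under all 7 scalings 79 of the 94 GT probes kept a positive change and 48 of the 51 CA probes a negative one. Probes with a GA repeat (14) had a median of 0.97 with 7 called higher and 1 lower. For those with a TC repeat (12) the median was -0.43, with 1 called lower and none higher, and the array medians overlapped, at 14.63 to 15.11 without treatment and 13.94 to 15.02 in tumour tissue. With the 10-week arrays on a slide of their own, the slide's part in these shifts cannot be told apart from the tissue's.

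**Figure D3:**
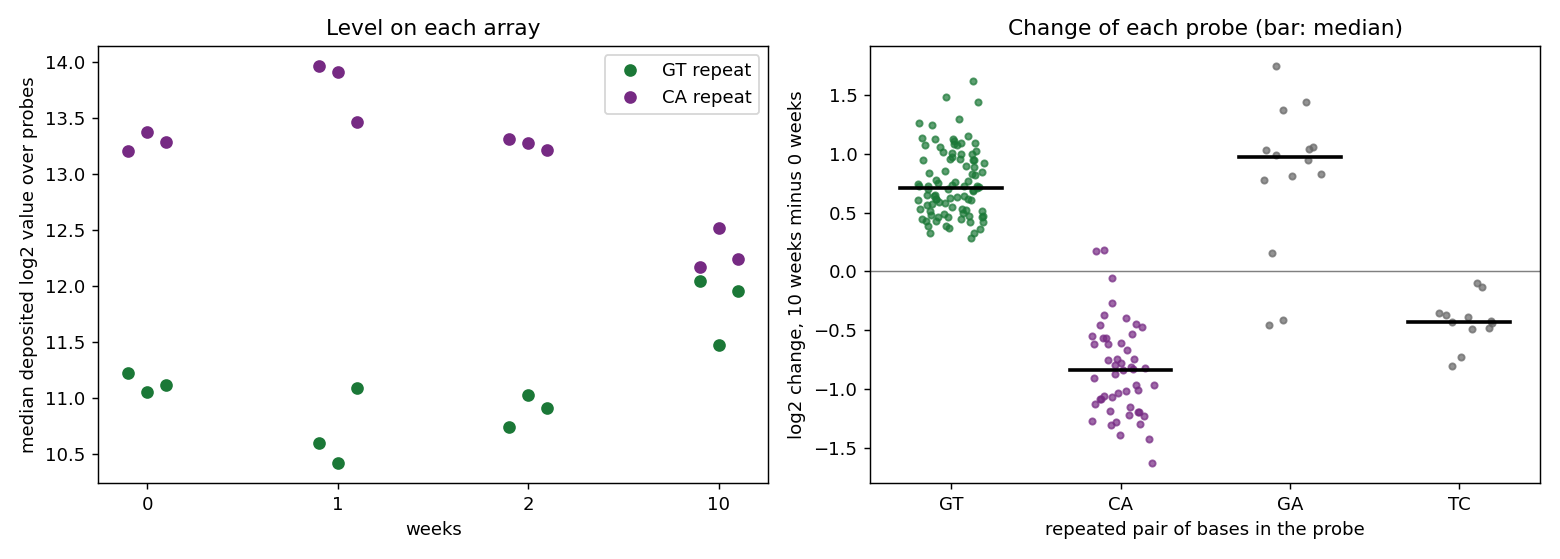
Left, median deposited log2 value (vertical axis) over the 94 GT-repeat and 51 CA-repeat probes on each array, by weeks (horizontal axis). Right, the log2 change at 10 weeks of each probe with a GT, CA, GA or TC repeat, with bars at the medians; on this deposited scale all GT points lie above 0 and 49 of 51 CA points below.

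Where probes could be set against each other on the same strand, no pair was called in opposite directions, but in many pairs only 1 probe was called. Of 513 tested pairs with identical sequence, 135 had at least 1 called probe, 64 had both called in the same direction and 0 in opposite directions. The changes of such a pair differed by a median of 0.23 on the log2 scale. For 456 pairs that overlap by 30 to 59 bases on the same strand the median difference was 0.28. At least 1 probe was called in 202 of them, with 76 called alike and 0 opposed. For 46 pairs on opposite strands the median difference was 0.52, and 24 had at least 1 called probe, with 2 called alike and 8 opposed.

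How many probes rose and how many fell depended on the scaling. The deposited values gave 8782 higher (14.8%) and 9447 lower (15.9%), 30.7% of the tested probes in all. The processed signal, scaled by its 75th percentile over detected probes, gave 14116 higher (23.7%) and 6475 lower (10.9%), 34.6% in all. Higher probes were 48.2% of the calls in the first and 68.6% in the second. Without scaling the split was 21698 to 3865, and with the percentile over all probes 6813 to 13383. Quantile normalization gave 8832 and 9496, normexp 9409 and 9960, and cyclic loess 8785 and 8331. The median change over the tested probes was 0.01 in the deposited values, 0.22 with detected probes, 0.44 unscaled and -0.13 with all probes. Small changes therefore have no settled sign, and 5052 probes were higher and 3816 lower under all 7 scalings.

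**Figure D4:**
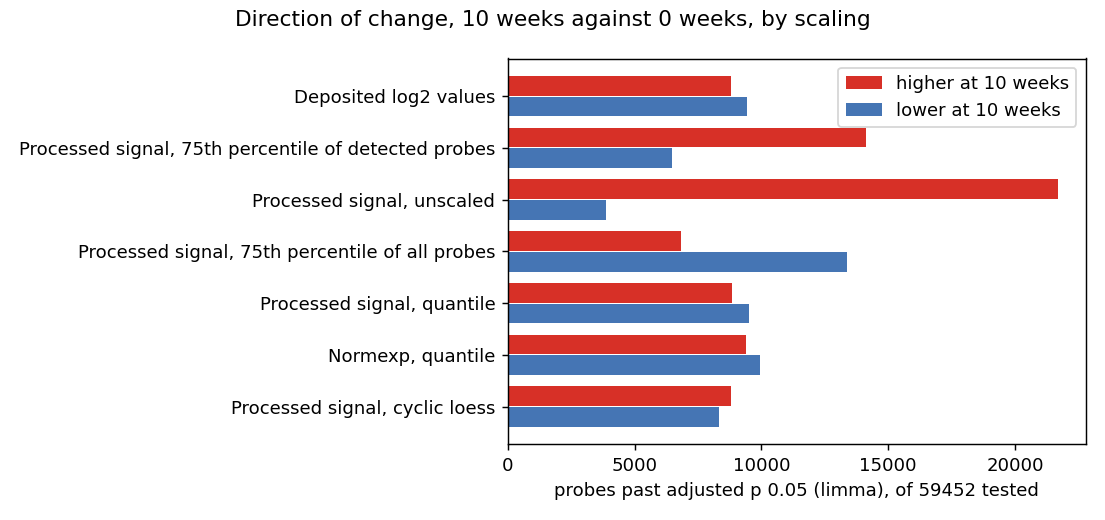
Number of probes past the threshold (horizontal axis, of 59452 tested) that were higher or lower at 10 weeks under each of 7 scalings (vertical axis). Higher calls outnumber lower calls with unscaled signals, with scaling on detected probes and by a little with cyclic loess, and lower calls outnumber higher ones under the other 4.

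The balance also changed with size and brightness. Among probes called on both scales, 4293 rose and 3498 fell by at least 2-fold, 1138 and 811 by at least 4-fold, 374 and 135 by at least 8-fold, and 181 and 20 by at least 16-fold. These are fitted folds, and 131 of the 181 were not well above background on any 0-week array, as 8 of the 20 were not on any 10-week array. Probes were also split into 3 sets of equal size by their 1- and 2-week level, which the contrast did not use. In the dimmest set 2965 rose and 865 fell, in the middle set 2827 rose and 1811 fell, and in the brightest 2553 rose and 3352 fell. Dim probes that pass the background filter through the 10-week arrays had to differ, so the count in the dimmest set is no support for more rises than falls.

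The array holds catalogue probes and custom probes, told apart here by their ID prefix; the difference between them was not tested. Of 32069 catalogue probes 4393 were higher and 4742 lower, 28.5% in all. Custom probes, 27383 of them, gave 3952 rises and 1286 falls, 19.1% in all. The median GC content of catalogue probes was 45% among those tested and among those higher, and 41.7% among those lower. Among custom probes it was 43.3% in all 3 sets.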

How the data were processed

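Per the labels' protocols, total RNA was extracted with a kit, amplified and labelled with Cy3, and hybridised to 1-colour Agilent arrays with 60-base probes. Per the file headers and the submitters' processing notes, Agilent Feature Extraction 10.7.1.1 gave the deposited intensity of every spot. The processed signal is a background-subtracted intensity, per the file headers. The authors also deposited log2 values per probe; how they were normalized is not given in the sources used here, and their columns share the same quantiles. Across tested probes each column followed its own array's processed signal, with a correlation no lower than 0.999.

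Control and outlier-flagged spots were left out and spots of a probe were averaged; no spot was saturated. The number of arrays, 3 a group, limits the precision. In R 4.3.3, limma 3.58.1 (lmFit and eBayes, Benjamini-Hochberg adjustment) fitted the 4 group means to all 12 arrays, on the deposited values and on the log2 processed signal after its 75th percentile over probes detected on every array was subtracted. The procedure was tested on simulated data. Genes were located by identical matches of at least 40 bases to 32851 gene-start windows and 1005 hairpins; matches elsewhere in the genome were not analysed here, and coordinates are GRCm38.p6. The design had foreseen transcripts or proteins for this step.

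The members and lists were chosen with earlier results of these data known. Named genes were the 12 largest rises and falls called on both scales with groups apart and detection on 2 or more arrays of each group, the 6 largest bounds each way, and measured list genes; the brightest probe stood for a gene. The rule was applied to probe IDs as well.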

Additional observations from a re-analysis of the deposited data

How the results depend on the processing

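No total of called probes, both directions together, moved by more than 1.5 times, but counts by direction did: unscaled signals gave 21698 higher and 3865 lower against 8782 and 9447. Without each array in turn, the deposited values gave 12733 to 16227 called probes against 18229, and the processed signal 14659 to 17712 against 20591. Probes seen in 1 group numbered 3913 to 4943 against 3389, a count that leaving out an array can only keep or raise. The deposited-scale count was 18473 with no filter, 15129 with probes seen on all 6 arrays and 15741 with 6 arrays in the fit. It was 21735 with slide as a random block, an alternative added after the data were seen. No slide held arrays of different groups, so this block cannot separate slide from group. The fitted correlation within slides was negative (-0.092), and the larger count is no sign of robustness to slide. Replicate numbers do not pair the samples: deviations of arrays with the same number correlated at 0.01, -0.03 and 0.04. With the replicate number as a block, the count was 17515 (8375 higher and 9140 lower) on the deposited scale and 19796 on the processed scale. Over 77 named probes and 17 settings, 1217 of 1274 values kept direction and side of the threshold, 51 lost the call, 6 gained it and none reversed. Of probes called on both scales, 4568 higher and 3595 lower were also called on the deposited and processed scales without any 1 array. The mean over all probes of a gene was not run as a setting, since no gene named by the rule had several; 1 of 6 genes with several located probes had opposite signs. Low signal limits what can be said of probes near background.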
